A study of Homo sapiens with 6 samples.

Results

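The genes described here were listed for the identity, the differentiated cell types and the stem cells of the colon epithelium. Not all are particular to it: ZNF750 is known from squamous epithelium and GATA4 from the upper small intestine. A list of 51 genes was used, and a member counted as measured where the array's platform annotation paired a probe set with its symbol. This gave 41 measured genes of 14884 named genes in all, each with 1 probe set. The 10 listed genes not analysed here are HNF4A, HNF4G, FABP1, FABP2, ALPI, LGALS4, REG4, HES1, NEUROD1 and BMI1. By role, the measured members are 7 identity factors, 17 absorptive and surface genes, 10 secretory genes and 7 stem genes. The study measured total RNA of HCT116, a cell line established from a human colorectal carcinoma, on whole-transcript arrays. One group of 3 arrays came from cells that stably carry an empty vector (control), and the other 3 from stably transduced cells labelled as overexpressing miR-196b, which the series title ties to cancer cell migration. Both groups were grown in McCoy's medium with foetal serum, share the line and carry a vector; the titles spell the line HTC116 and the microRNA miR1966. The arrays of a group are given as biological replicates, but separate transductions are not stated, so the p-values cover only the spread between these samples, which may be technical.

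The colon epithelium renews itself from stem cells at the base of the crypts. Their progeny become absorptive colonocytes, which carry digestive and transport proteins on a brush border, or secretory cells, such as mucus-producing goblet cells and hormone-producing enteroendocrine cells. Homeobox factors of the CDX family, with GATA, KLF and HNF factors, keep intestinal genes active, while WNT signals favour the stem state and Notch signals favour absorptive over secretory fate. Colorectal carcinoma lines keep parts of this programme to different degrees.

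A microRNA pairs with its targets mainly through its seed, and the sequences of the labelled microRNA and of its close relative are shown because the arrays separate the genes that encode them. They are the RefSeq mature forms (GRCh38.p14), 5′ to 3′, with the seed, bases 2 to 8, in capitals:
hsa-miR-196b-5p: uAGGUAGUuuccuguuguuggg
hsa-miR-196a-5p: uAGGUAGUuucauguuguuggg
Both have 22 bases and the same seed, and they differ by 1 substitution, C12A, counted from the 5′ end of miR-196b-5p. MIR196B lies on chromosome 7 (mature form at chr7:27169528-27169549, minus strand), and miR-196a-5p is encoded by MIR196A2 on chromosome 12 (chr12:53991762-53991783, plus strand) and MIR196A1 on chromosome 17 (chr17:48632532-48632553, minus strand). The MIR196B probe set read 7.97 ± 0.102 (log2, SD, n = 3) in control and 8.05 ± 0.144 with the microRNA label, a difference of 0.08 (limma adjusted p = 0.819). The MIR196A2 probe set read 3.06 ± 0.167 (log2, SD, n = 3) in control and 10.61 ± 0.149 with the label, a difference of 7.55 (limma adjusted p = 4.53e-07). This control level lies under the level that bounds the dimmest 40% of the named probe sets and is not shown to be above background, so the difference is no exact fold. The MIR196A1 probe set had a difference of -0.27 (limma adjusted p = 0.622). So the gene the label names and MIR196A1 did not pass the test while MIR196A2 rose, and every direction below is that of arrays so labelled. The array reads precursor transcripts and gives no level of the mature forms.

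All values are deposited log2 values, and changes are labelled minus control on that scale, with p-values from limma adjusted over the 16098 probe sets that carry 1 gene symbol. Across these probe sets, which are not independent replicates, correlations ran from 0.994 to 0.995 for arrays of the same group and from 0.992 to 0.994 for arrays of different groups. Of the epithelial markers, 7 of 8 were measured, with means over the 6 arrays of 6.68 to 11.27. Of the markers of other cell types, 2 of 6 fibroblast genes were measured (LUM at 2.09 and DCN at 2.36), 3 of 4 endothelial genes (3.12 to 4.08) and 2 of 6 blood genes (CSF1R at 4.15 and CD68 at 7.61). None of these markers passed the adjusted test, and their part in the results was not tested. The files hold no detection call, so a position on the array stands in for one. A mean of 4.86 marks the 40th percentile of the named probe sets; 16 measured members lay above it and 25 did not, and for these 25 a level above background is not shown.

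No member passed the adjusted test. Of the 41 measured members 0 had a limma adjusted p below 0.05, where 0.0559% of all probe sets tested did. The lowest adjusted p was 0.160, for ZNF750, and the highest 0.991, for SOX9. At an unadjusted p below 0.05, 6 members passed (14.6%, against 9.87% of all probe sets tested): ANPEP, DPP4, GUCY2C and PROM1 were higher, and ZNF750 and CDX2 were lower. Of these 6, only 3 passed without control replicate 1, 2 without control replicate 3 and 1 (ZNF750) without labelled replicate 1, and the count with newly passing members was 3 in each case. PROM1 lost its place with any of the 6 arrays left out. How many of all probe sets passed with an array left out was not counted, so these losses are not shown to be particular to the members. With all 6 arrays, the higher ones were 4 members against a background of 5.73%, and the lower ones 2 against 4.14%. The groups did not overlap for 8 members (19.5%, against 17.2% of all probe sets tested), 5 of them higher (background 10.0%) and 3 lower (background 7.18%). These shares lie near those of the array as a whole. In bulk RNA, fewer cells expressing a gene and less RNA per cell cannot be told apart.

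Directions were split almost evenly. Of the 41 members, 20 had a positive log2 change and 21 a negative one, with a median of -0.0057, beside a median of 0.0069 over all probe sets tested, of which 52.0% were positive. The largest negative change was -0.57 (ZNF750) and the largest positive one 0.48 (ANPEP). The 95% interval of the change lay inside 1.5-fold in both directions (0.58 on the log2 scale) for 32 of the 41 members, or 78.0%, where 88.1% of all probe sets tested did. For 20 members (48.8%, against 56.5%) it lay inside 1.3-fold. For the other 9 members a change of 1.5-fold is not excluded by these arrays.

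**Figure D1:**
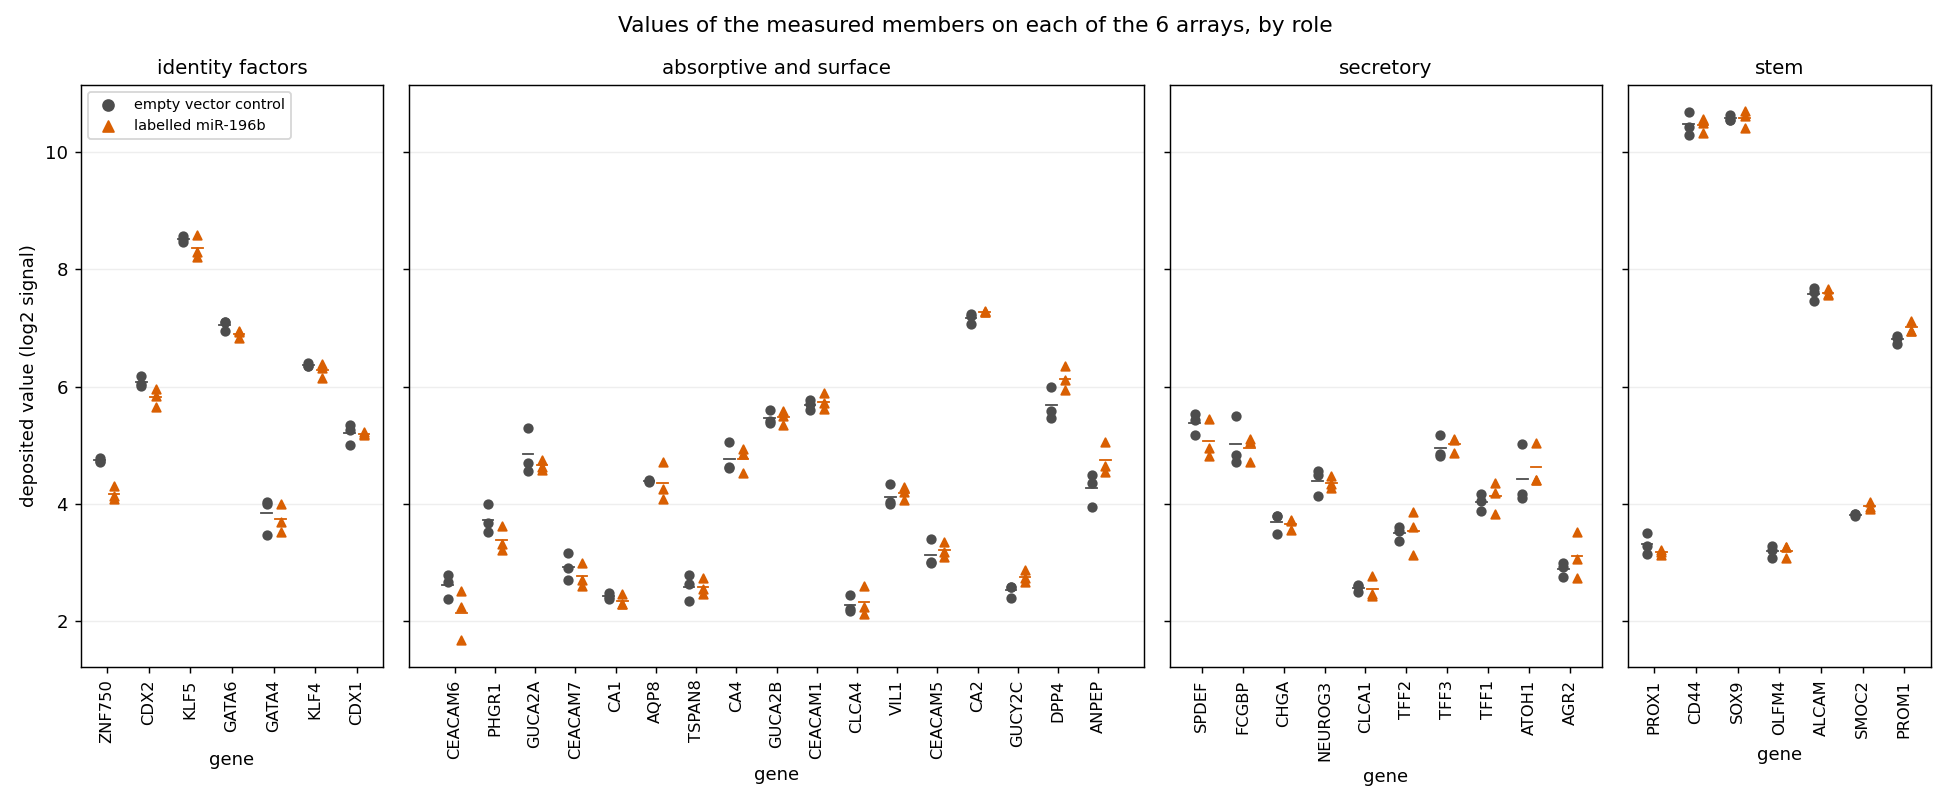
Deposited log2 signal (vertical axis) of the 41 measured members on each array, by role; grey circles are the 3 control arrays, orange triangles the 3 arrays labelled miR-196b, and short lines the group means. Within a role, genes run from the lowest to the highest log2 change, and values are to be compared within a gene, not between genes; the groups stand apart for 8 members, among them ZNF750, CDX2 and GATA6.

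The identity factors were the role in which every measured member had a negative log2 change, 7 of 7, although none passed the adjusted test. Of all 16098 probe sets tested, 7733 had a negative change. The members were chosen with earlier results of these data known, so the 7 of 7 is not a test of the role. The median change of the identity factors was -0.15. CDX1 turned positive in 3 of 13 alternatives and GATA4 in 1 of 12. ZNF750, a zinc finger factor known for driving squamous epithelial differentiation, read 4.79, 4.72 and 4.73 on the control arrays and 4.08, 4.31 and 4.14 on the labelled arrays. All labelled arrays lay below all control arrays, with a gap wider than the range of either group. Its log2 change was -0.57 with a standard error of 0.08, or 1.48-fold lower (95% interval -0.77 to -0.37, limma adjusted p = 0.160). By exact permutation its p was 0.1, which is the lowest possible here. Its mean of 4.46 lies in the dim part of the array.

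CDX2, the homeobox factor that specifies intestinal epithelium, read 6.04, 6.01 and 6.18 in control and 5.84, 5.96 and 5.66 in the labelled arrays. The groups did not overlap, with a gap that is small beside the spread of the labelled arrays. Its log2 change was -0.26 (95% interval -0.50 to -0.02, limma adjusted p = 0.481). CDX1, its close relative, read 5.26, 5.01 and 5.35 in control and 5.18, 5.22 and 5.20 in the labelled arrays, so the labelled values fell within the control range. Its log2 change was -0.0087, with an interval of -0.25 to 0.23 (limma adjusted p = 0.984). Whether the changes of CDX2 and CDX1 differ was not tested.

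GATA6, a zinc finger factor that supports proliferation and identity of the colon epithelium, read 7.11, 6.95 and 7.11 in control and 6.83, 6.94 and 6.94 in the labelled arrays. The groups were just apart, and the log2 change was -0.15 (95% interval -0.34 to 0.04, limma adjusted p = 0.575). GATA4, a factor of the upper small intestine, read 4.01, 3.47 and 4.04 in control and 4.0, 3.69 and 3.52 in the labelled arrays. Its groups overlapped over nearly their whole range, with a change of -0.10 (95% interval -0.53 to 0.33). The mean of GATA4, 3.79, lies in the dim part of the array.

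The Krüppel-like factors KLF5, which is active in dividing crypt cells, and KLF4, which is active in differentiated ones, had overlapping groups. KLF5 read 8.56, 8.47 and 8.52 in control and 8.21, 8.30 and 8.58 in the labelled arrays, where labelled replicate 3 was above every control array and the other two were below. Its log2 change was -0.15 (95% interval -0.40 to 0.10, limma adjusted p = 0.663). KLF4 read 6.35, 6.40 and 6.35 in control and 6.15, 6.33 and 6.38 in the labelled arrays. Its change of -0.08 has an interval of -0.28 to 0.11, whose far end is 1.21-fold.

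Absorptive and surface genes went both ways, 10 with a positive and 7 with a negative log2 change and a median of 0.0098. Only 4 of the 17 lay above the 40th percentile. For the others, CEACAM6 and PHGR1 among them, a level above background is not shown. The 3 of 17 that passed the unadjusted threshold were higher in the labelled arrays, beside 5.73% of all probe sets tested that did so on the higher side, and none passed the adjusted test. ANPEP, the brush border aminopeptidase N, read 4.50, 3.95 and 4.36 in control and 5.05, 4.54 and 4.65 in the labelled arrays. The groups were separated by a narrow gap, since the lowest labelled array nearly met the highest control array. The log2 change was 0.48 with a standard error of 0.18 (1.39-fold higher, 95% interval 0.05 to 0.90, limma adjusted p = 0.473). Its mean of 4.51 lies in the dim part of the array.

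DPP4, a brush border dipeptidyl peptidase that also cleaves incretin hormones, read 5.59, 6.0 and 5.47 in control and 6.11, 5.95 and 6.35 in the labelled arrays. The groups overlapped, because control replicate 2 lay above labelled replicate 2. The log2 change was 0.45 with a standard error of 0.16 (1.36-fold higher, 95% interval 0.07 to 0.83, limma adjusted p = 0.453), and the exact permutation p was 0.2. GUCY2C, the receptor of the gut peptides guanylin and uroguanylin, read 2.59, 2.59 and 2.40 in control and 2.88, 2.75 and 2.67 in the labelled arrays. Its groups did not overlap, at values in the dim part of the array, with a log2 change of 0.24 (95% interval 0.02 to 0.46, limma adjusted p = 0.485).

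The ligands of that receptor had overlapping groups. GUCA2A, which encodes guanylin, read 5.30, 4.57 and 4.70 in control and 4.76, 4.58 and 4.63 in the labelled arrays, a log2 change of -0.20 (95% interval -0.63 to 0.23). Control replicate 1 stood above the other 5 arrays, and without it the change was 0.02. GUCA2B, which encodes uroguanylin, had a change of 0.0098 with an interval of -0.22 to 0.24, inside 1.3-fold in both directions.

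Of the carbonic anhydrases, which interconvert carbon dioxide and bicarbonate, CA2 read 7.07, 7.20 and 7.23 in control and 7.29, 7.27 and 7.28 in the labelled arrays. The labelled arrays lay close together and just above all control arrays, with a log2 change of 0.11 (95% interval -0.06 to 0.29, limma adjusted p = 0.647). CA1 had a change of -0.07 and CA4 of 0.0080, both with overlapping groups (limma adjusted p = 0.788 and 0.989).

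The largest negative change of this role was that of CEACAM6, a surface glycoprotein of the carcinoembryonic antigen family. It read 2.80, 2.68 and 2.38 in control and 2.25, 2.52 and 1.68 in the labelled arrays, with overlapping groups and a labelled replicate 3 far below the rest. The log2 change was -0.47 (95% interval -0.98 to 0.04, limma adjusted p = 0.518), and without labelled replicate 3 it was -0.24. The family members CEACAM1 (0.04), CEACAM5 (0.07) and CEACAM7 (-0.16) had overlapping groups. The genes of this family are alike in sequence, so probes could share signal between them, and probe sequences were not used here.

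PHGR1, a small protein of the intestinal epithelium, read 3.67, 3.52 and 4.01 in control and 3.21, 3.62 and 3.32 in the labelled arrays. The groups overlapped through labelled replicate 2, with a log2 change of -0.35 (95% interval -0.71 to 0.02, limma adjusted p = 0.508). The other members of this role lay close to 0. VIL1, the actin-bundling protein villin of the brush border, had a change of 0.06, the channel gene AQP8 of -0.04, CLCA4 of 0.05 and the tetraspanin TSPAN8 of -0.0089, and all 4 had overlapping groups (limma adjusted p = 0.893 to 0.987). Of the 17 members, 12 had an interval inside 1.5-fold.

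**Figure D2:**
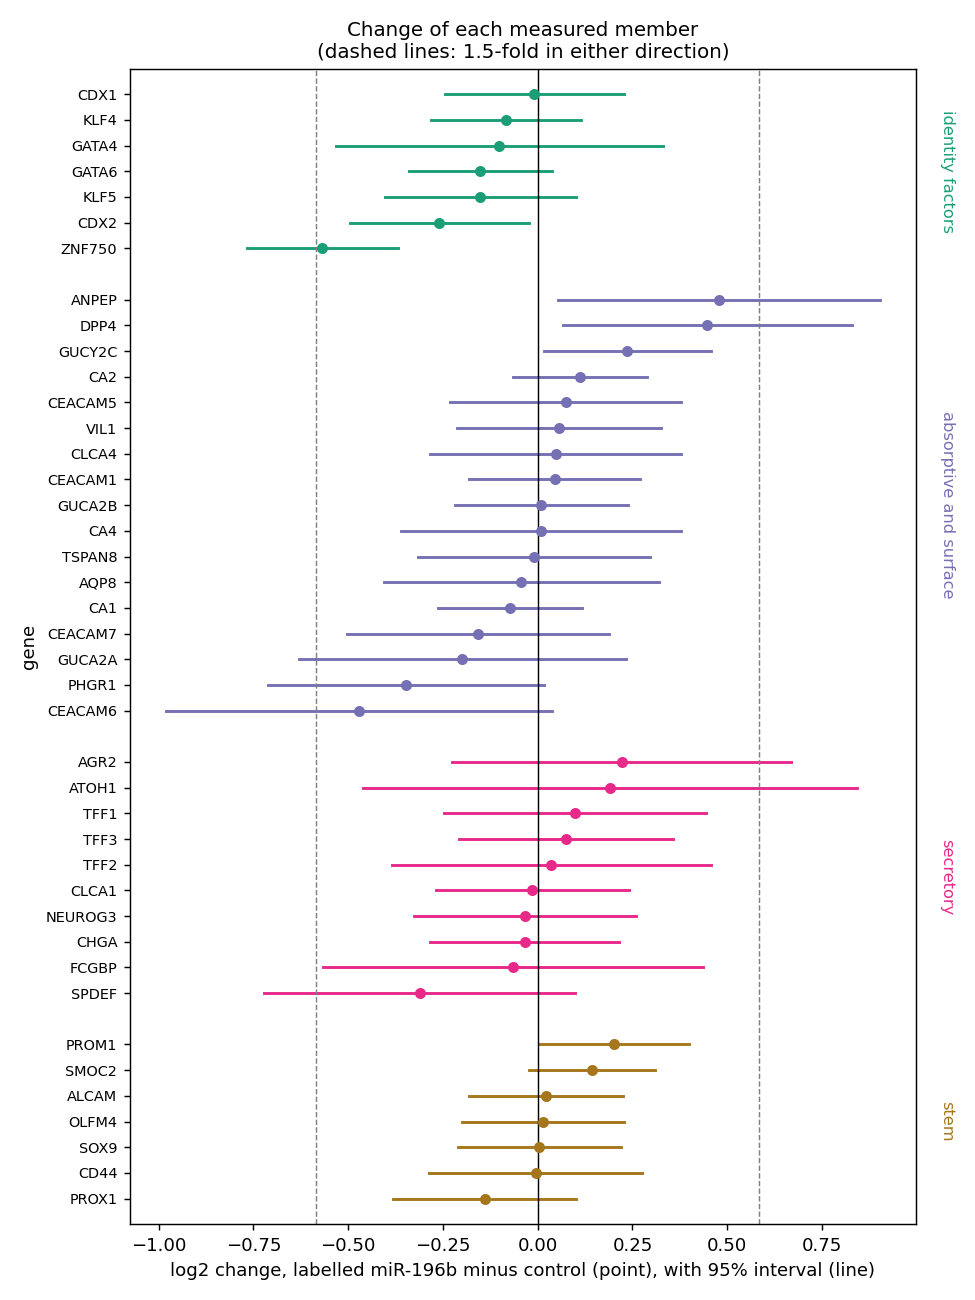
Log2 change of each measured member (points, labelled miR-196b minus control, horizontal axis) with its 95% interval from limma (lines), grouped and coloured by role; dashed lines mark 1.5-fold. All 7 identity factors lie left of 0, the intervals of 6 members leave out 0, and the intervals of 9 members cross a dashed line.

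Secretory genes showed no separated groups: 0 of 10 members had control and labelled arrays apart, and 0 passed at an unadjusted p below 0.05, beside 17.2% and 9.87% of all probe sets tested. With 10 members, these shares amount to few genes, so the counts do not set the role apart. They split 5 and 5 by direction, with a median log2 change of 0.01. Their replicate spread was wide, with a median within-group SD of 0.242 against 0.128 over all probe sets tested. Of the 10 members 7 lie in the dim part of the array: TFF1, TFF2, CLCA1, AGR2, ATOH1, CHGA and NEUROG3. In that part the median within-group SD over all probe sets was 0.177. SPDEF, a factor that matures goblet cells, read 5.18, 5.43 and 5.53 in control and 5.45, 4.81 and 4.95 in the labelled arrays. Labelled replicate 1 lay among the control arrays and the other two below them, giving a log2 change of -0.31 (95% interval -0.72 to 0.10, limma adjusted p = 0.591). ATOH1, the factor that commits cells to the secretory lineage, had the largest within-group SD of all members, 0.444. It read 5.02, 4.17 and 4.11 in control and 4.42, 5.05 and 4.41 in the labelled arrays, so 1 array of each group was high and the others low. Its log2 change of 0.19 has an interval of -0.46 to 0.84, which leaves changes of up to 1.79-fold possible.

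AGR2, a disulfide isomerase needed for mucin folding, read 2.99, 2.92 and 2.75 in control and 3.06, 2.74 and 3.53 in the labelled arrays, a log2 change of 0.22 (95% interval -0.23 to 0.67). That value rests on labelled replicate 3: without it the change was 0.01. FCGBP, a mucus protein, read 4.72, 4.84 and 5.50 in control and 5.10, 4.71 and 5.05 in the labelled arrays, with the highest value in control and nearly the same lowest value in both groups (log2 change -0.06). The trefoil peptides, which goblet cells and gastric mucous cells secrete to protect the mucosa, had overlapping groups. TFF1 read 4.05, 4.16 and 3.88 in control and 4.36, 3.83 and 4.19 in the labelled arrays (log2 change 0.10), and TFF2 and TFF3 had changes of 0.04 and 0.07. The goblet cell protein CLCA1 (-0.01) and the enteroendocrine genes CHGA (-0.03), which encodes chromogranin A, and NEUROG3 (-0.03), which starts the endocrine programme, had intervals inside 1.5-fold.

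Stem genes had the smallest replicate spread of the 4 roles, and 4 of the 7 measured members lay above the 40th percentile. Their median within-group SD was 0.104, and all 7 measured members had an interval inside 1.5-fold, 5 of them inside 1.3-fold. Over all probe sets tested the median SD was 0.128, and it was 0.0996 over those above the 40th percentile. Of all probe sets tested, 88.1% had an interval inside 1.5-fold and 56.5% inside 1.3-fold. PROM1, the membrane glycoprotein CD133, read 6.87, 6.73 and 6.83 in control and 6.95, 6.95 and 7.13 in the labelled arrays. The groups did not overlap, and the log2 change was 0.20 with a standard error of 0.08 (1.15-fold higher, 95% interval 0.0040 to 0.40, limma adjusted p = 0.500). SMOC2, a matricellular protein of crypt stem cells, had the smallest within-group SD of all members, 0.047. It read 3.80, 3.83 and 3.82 in control and 4.03, 3.91 and 3.95 in the labelled arrays, with all labelled arrays above the controls and a log2 change of 0.14 (95% interval -0.02 to 0.31, limma adjusted p = 0.549). Its values lie in the dim part of the array.

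SOX9, a WNT-driven factor of the crypt base, read 10.62, 10.54 and 10.55 in control and 10.62, 10.42 and 10.69 in the labelled arrays. The labelled arrays spread around the controls, with a log2 change of 0.0038 (95% interval -0.21 to 0.22), the ends of which reach 1.16-fold. CD44, an adhesion receptor and WNT target used as a marker of tumour-initiating cells, read 10.30, 10.69 and 10.43 in control and 10.57, 10.33 and 10.50 in the labelled arrays. Its change was -0.0057 (95% interval -0.29 to 0.28). Both signs are unsettled: with 1 array left out in turn the changes ran from -0.055 to 0.083 for SOX9 and from -0.092 to 0.10 for CD44, and SOX9 also turned negative when arrays were centred on their medians. ALCAM, an adhesion molecule, read 7.45, 7.69 and 7.61 in control and 7.67, 7.58 and 7.56 in the labelled arrays (log2 change 0.02). PROX1, a homeobox WNT target of colon tumours, read 3.51, 3.29 and 3.15 in control and 3.22, 3.13 and 3.18 in the labelled arrays, with overlapping groups and a log2 change of -0.14. OLFM4, a secreted crypt stem cell marker, had a change of 0.01. The means of PROX1 (3.25) and OLFM4 (3.20) lie in the dim part of the array, where a level above background is not shown.

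**Figure D3:**
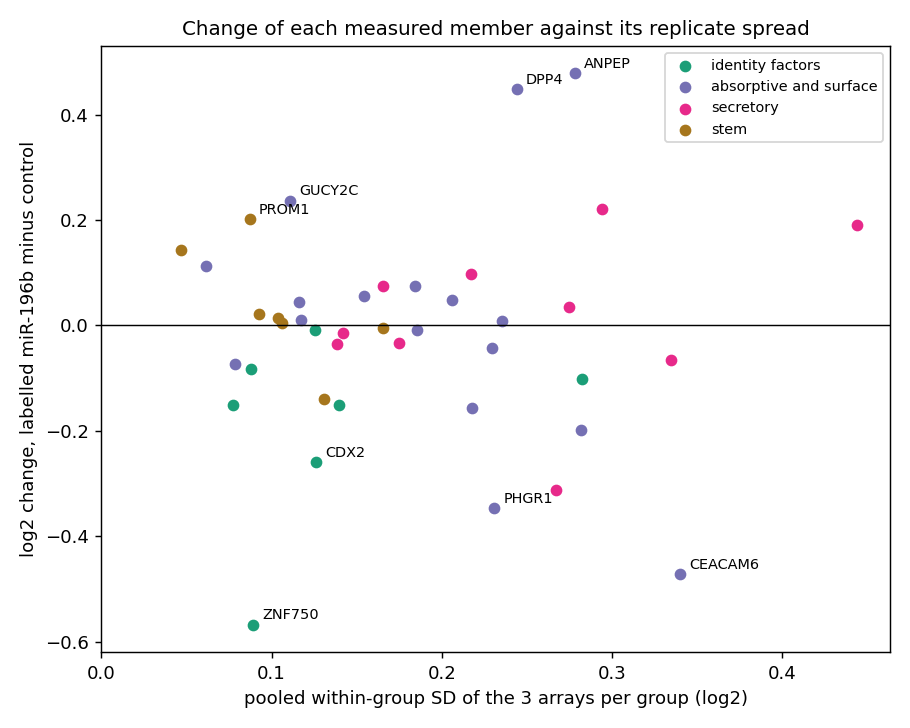
Log2 change of each of the 41 measured members (vertical axis) against its pooled within-group SD over the 3 arrays of each group (horizontal axis, log2), coloured by role, with the 8 members of smallest unadjusted p named. ZNF750 combines a log2 change of -0.57 with a small spread, while ANPEP (0.48) and DPP4 (0.45) lie on the other side of 0 with a wider spread.

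Other genes of the intestinal programme that are no members were read from a further list of 49, of which 34 were measured. None passed the adjusted test, while 10 (29.4%, against 9.87% of all probe sets tested) passed at an unadjusted p below 0.05, 4 higher and 6 lower. The groups did not overlap for 13 of them (38.2%, against 17.2%). By direction 16 were positive and 18 negative, with a median log2 change of -0.02. This list was chosen with earlier results of these data known, so its shares above the background are not a test of the programme. JAG1, a Notch ligand, read 9.04, 9.12 and 9.02 in control and 9.41, 9.49 and 9.51 in the labelled arrays, a log2 change of 0.41 (95% interval 0.24 to 0.58, limma adjusted p = 0.251). The labelled arrays lay clear of the controls. JAG1 passed with a trended, robust variance prior (limma adjusted p = 0.00354, over a range of 0.00354 to 0.552 across alternatives) and in no other alternative. Its next lowest value came without the dimmest 40% of probe sets (limma adjusted p = 0.0713). The share of all probe sets that pass under the trended, robust prior was not counted. RNF43, which removes WNT receptors from the cell surface, had a change of 0.38 (limma adjusted p = 0.274) and passed under the same prior (limma adjusted p = 0.00818, over a range of 0.00818 to 0.552). PPARG, a nuclear receptor of differentiated colonocytes, had a change of 0.39 (limma adjusted p = 0.310), HES5, a Notch target, of 0.25 (limma adjusted p = 0.461), FOXA1, a pioneer factor, of -0.24 (limma adjusted p = 0.452) and ASCL2, a master factor of crypt stem cells, of -0.37 (limma adjusted p = 0.474). KRT20 and LGR5, named after their values were seen as the usual markers of differentiated and stem cells, had changes of -0.33 and -0.10 (limma adjusted p = 0.479 and 0.761). The means of HES5, FOXA1, ASCL2, KRT20 and LGR5 lie in the dim part of the array, where a level above background is not shown.

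The stretch around the start of each gene was read for binding motifs of the identity factors. RefSeq (GRCh38.p14) gave a promoter, 250 bases before to 50 after the start, for 27 of the 41 measured members. On either strand, the CDX core TTTATG was in the promoters of 4 of these 27 genes (14.8%), AGR2, CLCA4, PROM1 and TSPAN8, against 12.9% of the 27305 genes with a promoter. The GATA motif AGATAA was in 5 (18.5%, against 12.4%), AGR2, AQP8, CDX2, GUCA2A and NEUROG3. The HNF4 motif CAAAGTCCA was in 0 (against 0.472%). None of these motifs contains another. Of the 6 members that passed the unadjusted threshold, ANPEP, DPP4, PROM1 and CDX2 had promoters here, and 2 of them are shown because they hold a match: CDX2, whose own change was negative, and PROM1, which has a CDX core at 2 of its 4 listed start sites, 1 of which is shown. Both lie on the minus strand and are written 5′ to 3′ in the direction of the gene, with the match in capitals; a match describes letters and is no evidence of binding.
CDX2 (chr13:27969266-27969565, GATA motif on the opposite strand): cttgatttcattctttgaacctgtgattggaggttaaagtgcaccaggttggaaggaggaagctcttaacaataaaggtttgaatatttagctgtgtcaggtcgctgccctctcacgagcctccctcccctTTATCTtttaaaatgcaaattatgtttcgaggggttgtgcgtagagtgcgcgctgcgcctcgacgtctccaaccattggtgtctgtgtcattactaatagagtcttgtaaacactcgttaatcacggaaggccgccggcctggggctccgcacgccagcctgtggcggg
PROM1 (chr4:16083680-16083979, CDX core on the opposite strand): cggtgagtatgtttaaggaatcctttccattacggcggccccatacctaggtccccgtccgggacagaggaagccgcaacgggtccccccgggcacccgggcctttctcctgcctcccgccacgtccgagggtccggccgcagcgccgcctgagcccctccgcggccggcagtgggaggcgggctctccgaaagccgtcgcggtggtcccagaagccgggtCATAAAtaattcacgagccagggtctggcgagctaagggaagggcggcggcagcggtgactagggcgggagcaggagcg
The changes that go with them are -0.26 for CDX2 and 0.20 for PROM1. The other members with a CDX core had log2 changes of 0.22 (AGR2), 0.05 (CLCA4) and -0.0089 (TSPAN8). Beside CDX2, those with a GATA motif had changes of 0.22 (AGR2), -0.04 (AQP8), -0.20 (GUCA2A) and -0.03 (NEUROG3).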

How the data were processed

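The 6 deposited arrays (3 control, 3 labelled miR-196b) hold 1 log2 value per probe set. RMA and Partek 6.6 are named, with no order or options, per the submitters' processing notes, and RMA removes differences in overall level between arrays. RMA output is in log2, so that base was assumed; the genome build is not given in the sources used here. Of 53617 probe sets, 16098 carried 1 symbol, and the other 37519 carried no single symbol here.

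The 16098 were fitted without further normalization with limma 3.58.1 in R 4.3.3 (lmFit, eBayes with 3.23 prior degrees of freedom, no trend), with Benjamini-Hochberg adjustment at 0.05; the fit was tested on simulated data. The members and lists were chosen with earlier results of these data known. Arrays were shown in full for members past the adjusted threshold, the 4 of smallest unadjusted p and the 2 of highest mean in each role, and CDX1, CDX2, ATOH1, SOX9 and CD44; the rest are described by role, several also with all arrays. Up to 6 of the other intestinal genes were named, by unadjusted p. A planned background reference from olfactory receptor probe sets was not run, since only 1 was named, and the 40th percentile took its place. The alternatives were a filter on dim probe sets, another variance prior, repeated quantile normalization, median centring, a replicate block, all probe sets tested, a mean over a gene's probe sets and each array left out. No scan date was used, so no batch was tested.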

Additional observations from a re-analysis of the deposited data

How the results depend on the processing

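Over 13 alternatives, 0 members passed the adjusted threshold. ZNF750 came nearest in the 12 that fitted it (limma adjusted p = 0.0918 to 0.489), and DPP4 in the one without dim probe sets (0.270). Of the 41 members, 20 kept their direction throughout. Of the 6 members past the unadjusted threshold, 3 passed without the dimmest 40% of probe sets. That filter fitted 16 of the 41 members and left out the other 3 of the 6 (ZNF750, ANPEP and GUCY2C). When all probe sets were tested, 3 of the 6 passed, and CDX2, GUCY2C and PROM1 did not. That fit used the same values, with its variance prior estimated over all 53617 probe sets. With 1 array left out in turn the count was 3 to 7. The median log2 changes were then -0.020 to 0.0069 over all members, -0.20 to -0.12 for identity factors, -0.032 to 0.088 for absorptive, -0.0068 to 0.037 for secretory and -0.017 to 0.074 for stem genes. With arrays centred on their medians SOX9 had -0.0038. Same-numbered arrays deviated from their group means with correlations of 0.030, 0.037 and 0.0085, which shows no pairing by number but does not exclude it. With the replicate block 4 members passed the unadjusted threshold, 3 of them from the 6, and 0 the adjusted one. In none of these alternatives was the share of all probe sets past the unadjusted threshold counted. The member counts therefore have no background beside them. With 1 array left out in turn, these log2 changes took both signs: CDX1 -0.11 to 0.062, GATA4 -0.28 to 0.0069, VIL1 -0.0072 to 0.16, CEACAM1 -0.030 to 0.11, CA4 -0.078 to 0.15, GUCA2A -0.34 to 0.022, GUCA2B -0.046 to 0.075, AQP8 -0.22 to 0.089, CLCA4 -0.091 to 0.15, TSPAN8 -0.13 to 0.091, TFF1 -0.019 to 0.25, TFF2 -0.13 to 0.24, FCGBP -0.21 to 0.18, CLCA1 -0.12 to 0.050, ATOH1 -0.020 to 0.48, CHGA -0.14 to 0.017, NEUROG3 -0.16 to 0.044, SOX9 -0.055 to 0.083, OLFM4 -0.042 to 0.075, ALCAM -0.043 to 0.074, CD44 -0.092 to 0.10 and MIR196B -0.00073 to 0.14. Only 3 arrays per group limit the precision, most of all for dim probe sets.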
